A study of Arabidopsis thaliana with 6 samples.

Results

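MRD1 (AT1G53480) and 7 loci around it on chromosome 1 of Arabidopsis thaliana were followed through hypocotyl callus of 2 genotypes. The 8 loci are those with the codes AT1G53450, AT1G53460, AT1G53470, AT1G53480, AT1G07887, AT1G53490, AT1G53500 and AT1G53510, out of 31305 in the table. MRD1 was chosen by its own TPM in these same libraries, where the genotypes differ, AT1G07887 and AT1G53490 (HEI10) because they overlap it, and the 5 flanking genes because of their position. The values of MRD1 and of both overlapping loci are therefore given as a description, with no test, whereas the flanking genes were tested. The question was how far along the chromosome the difference extends. TPM is an abundance corrected for transcript length and, by definition, scaled to a fixed library total. The totals listed here were not all equal. A locus entered the test where its 6 values averaged 1 TPM or more. All 8 loci did.

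The mutant group was the line rap2.12-2 (3 libraries) and the control was the wild type Col-0 (3 libraries). In both, hypocotyls of 1-week-old seedlings had been cut out and kept for 7 days on medium that induces callus, a mass of dividing cells. The series describes the libraries as biological replicates. The lesion in rap2.12-2, its number of backcrosses and the background it was made in are not given in the sources used here.

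RAP2.12 encodes a transcription factor of ethylene response factor group VII, which is stable when oxygen is short. Its transcript was listed at 360, 363 and 465 TPM under the rap2.12-2 label, against 123, 140 and 161 TPM in Col-0, so the transcript was higher under the mutant label. RAP2.12 itself lies 170.1 kb from MRD1 on the same chromosome arm. Depth cannot be read from TPM and is unknown. Col-0 replicate 1 had a listed total of 845341 TPM, where the other libraries had 984523 to 992724. The test below used the values as listed, without rescaling. Col-0 replicate 1 also had 12005 TPM of organelle transcripts, where the others had 157 to 537. Of 10 markers of callus and root primordia, 9 reached a mean of 1 TPM (LBD29 did not). Their sum ran from 424 to 725 TPM in libraries labelled rap2.12-2 and from 679 to 761 TPM in Col-0. Xylem markers summed to 223 to 236 TPM in libraries labelled rap2.12-2 and to 140 to 174 TPM in Col-0. The limma test used below called 0 of these 3 markers, against 0.0698% of all kept genes. The sums of leaf mesophyll, phloem, epidermis and root hair markers overlapped between the genotypes. The part of cell types in the values below was not tested. In bulk tissue, fewer cells of a type and less RNA per cell cannot be told apart.

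MRD1 stands for mto1 responding down: it was named for a lower transcript level in mto1, a mutant of cystathionine gamma-synthase that accumulates free methionine. Many Arabidopsis genes share their DNA with a transcript from the opposite strand. Reads lying wholly within such a stretch can be given to the right gene with certainty only when the library keeps strand. Neither the labels nor the table says whether strand was used here.

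The locus is compact and its transcripts interleave. MRD1 occupies chr1:19963047-19964712 on the minus strand (TAIR10.1). It has a single-exon transcript and a spliced transcript of 2 exons, which together cover 1250 exonic bases, and reading frames of 120 and 193 codons. The long non-coding RNA AT1G07887 (chr1:19963067-19964105, plus strand) consists of 1 exon of 1039 bases, all of them inside MRD1 exons. HEI10 (chr1:19963267-19966952, plus strand) shares 922 exonic bases with MRD1, which is 73.8% of MRD1 and 40.9% of HEI10. The shared stretch is the noncoding start of HEI10, since no coding base of HEI10 lies in MRD1. A second annotated HEI10 transcript starts at 19965146, beyond the end of MRD1. Only 128 bases of MRD1 (10.2%) belong to it alone among the 3 loci, against 1330 bases of HEI10 (59.1%) and none of AT1G07887.

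The bases just before the annotated starts of MRD1 and AT1G07887, and the start of the shorter MRD1 reading frame, are shown because they are where the opposed transcripts begin and meet. They were read from the TAIR10.1 genome. The capitals mark TATAAA in the upstream windows, searched on the strand of the gene, and the ATG in the reading frame. The MRD1 window is chr1:19964713-19964962 (minus strand), inside an intron of HEI10. It precedes the start of the spliced MRD1 transcript. The single-exon transcript starts at 19964188, inside the locus, and the bases before that start were not searched. The AT1G07887 window is chr1:19962817-19963066 (plus strand), and the reading frame start is chr1:19963809-19963838 (minus strand), in exons of all 3 loci.
MRD1 upstream: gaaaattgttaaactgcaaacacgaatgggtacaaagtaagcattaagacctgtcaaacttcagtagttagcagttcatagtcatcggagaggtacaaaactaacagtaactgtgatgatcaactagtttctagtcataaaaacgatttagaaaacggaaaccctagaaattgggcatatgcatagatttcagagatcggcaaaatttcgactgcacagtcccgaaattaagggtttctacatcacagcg
AT1G07887 upstream: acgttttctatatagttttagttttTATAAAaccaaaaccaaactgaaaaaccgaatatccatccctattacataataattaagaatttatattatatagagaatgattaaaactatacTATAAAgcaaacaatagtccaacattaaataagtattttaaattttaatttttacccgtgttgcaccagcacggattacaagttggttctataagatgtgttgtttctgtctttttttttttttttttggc
MRD1 reading frame start: ATGactctcgacgacggcagcagatctggt

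The MRD1 window had a GC content of 38.0% and no TATAAA. The AT1G07887 window had a GC content of 25.2% and 2 matches. Across 31215 windows of 250 bases before annotated starts, 31.8% held TATAAA on the strand of the gene, and 3 of the 8 loci did (AT1G53460, MSL4 and AT1G07887). GCCGCC, the core bound by many ethylene response factors, was searched on both strands and was in 1.83% of all windows and in none of the 8. The hypoxia-responsive promoter element, by which group VII factors are known to act, had a match in 0.042% of all windows and in none of the 8. A missing match says only that these letters are not in these windows.

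**Figure D1:**
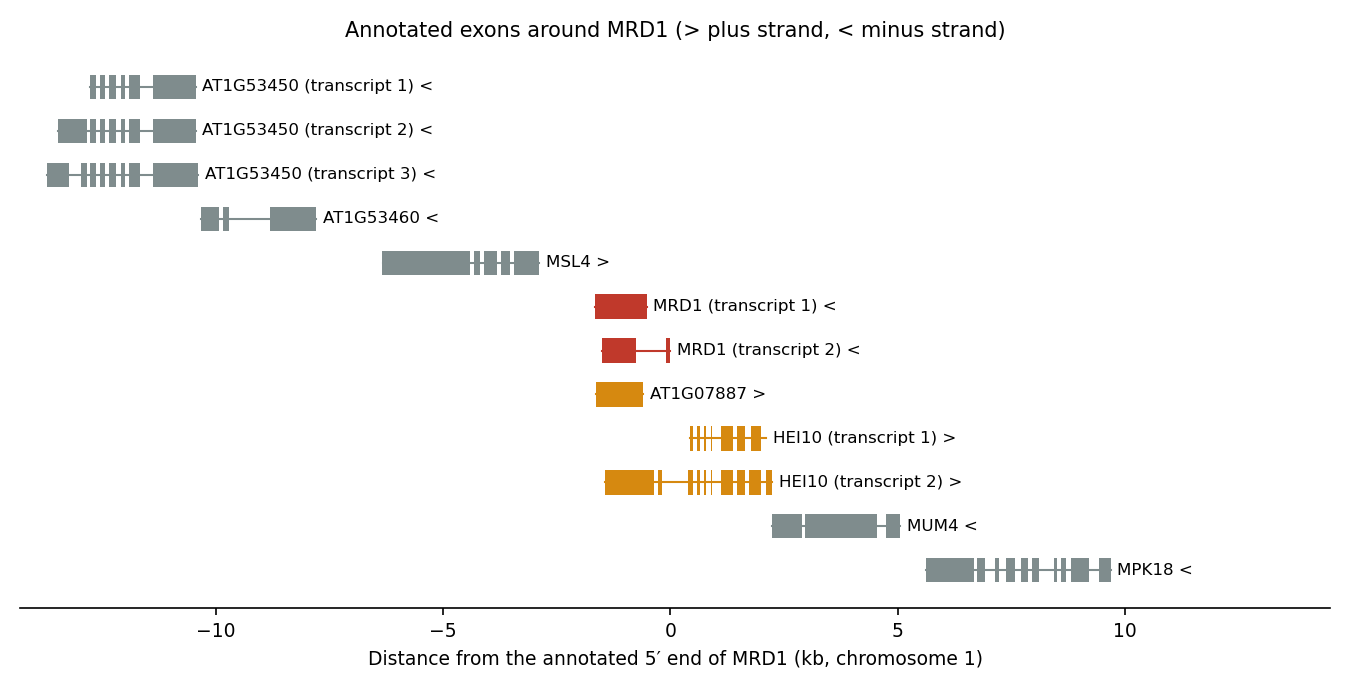
Map of the 8 loci by distance from the MRD1 start (kb), with boxes for annotated exons, a row for each transcript, and > or < for the plus or minus strand. MRD1, AT1G07887 and the first exon of HEI10 lie over one another. Gaps from the nearer edge of MRD1 to the flanking genes are 1.2 to 8.7 kb, whereas the axis is measured from the MRD1 start.

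MRD1 was low in every Col-0 library and among the more abundant transcripts in every library labelled rap2.12-2. It was listed at 158, 121 and 110 TPM in libraries labelled rap2.12-2, against 3.25, 6.90 and 4.09 TPM in Col-0. The groups were far apart, with the lowest library labelled rap2.12-2 above the highest Col-0 library. Within its library, MRD1 exceeded 94.2%, 91.8% and 91.1% of the 18629 kept genes under the mutant label, against 13.99%, 21.1% and 15.7% in Col-0. MRD1 averaged 130 ± 24.8 TPM under the mutant label and 4.75 ± 1.91 TPM in Col-0 (SD, n = 3 each), and the difference on the log2(TPM + 1) scale was 4.54. It was the highest of all kept genes, which is how MRD1 was chosen.

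AT1G07887, the antisense non-coding RNA, had the same direction at a much lower level. It was listed at 2.65, 8.53 and 1.66 TPM in libraries labelled rap2.12-2, against 0, 0 and 0.19 TPM in Col-0. The groups did not overlap, although 1 library labelled rap2.12-2 was well above the other 2. The difference in log2(TPM + 1) was 2.09, a value that depends on the added 1 because Col-0 was at or near 0. As a share of MRD1 in the same library, AT1G07887 was 1.68%, 7.07% and 1.504% under the mutant label, against 0%, 0% and 4.65% in Col-0.

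HEI10 encodes a RING-finger protein that promotes class I crossovers in meiosis. It was listed at 29.4, 29.4 and 41.6 TPM in libraries labelled rap2.12-2, against 19.0, 20.1 and 22.7 TPM in Col-0. Every library labelled rap2.12-2 was above every Col-0 library, with replicate 3 of the mutant label the highest. HEI10 averaged 33.4 ± 7.04 TPM under the mutant label and 20.6 ± 1.93 TPM in Col-0 (SD, n = 3 each). The ratio of means was 1.62 and the log2 difference 0.66. MRD1 was 5.37, 4.10 and 2.65 times HEI10 in libraries labelled rap2.12-2, against 0.171, 0.344 and 0.180 times in Col-0, so the order of both genes was opposite in the genotypes.

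The groups did not overlap in 3 of the 8 loci, all higher under the mutant label, against 6.62% of all kept genes in that direction and 6.03% in the other. These 3 are the gene chosen for its difference and the loci chosen for sharing its bases, so nothing is read from the count. TPM multiplied by exonic length in kb puts the loci on a rough scale of the amount of sequenced RNA. The length covers all annotated exons of a locus, so the scale is off where a shorter transcript prevails. On this scale, the difference of means was 156 for MRD1, 28.9 for HEI10 (18.5% of that of MRD1) and 4.38 for AT1G07887 (2.81%). Their highest libraries under the mutant label also differed: replicate 1 for MRD1, replicate 2 for AT1G07887 and replicate 3 for HEI10. Whether reads of MRD1 were counted in the overlapping loci was not tested.

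**Figure D2:**
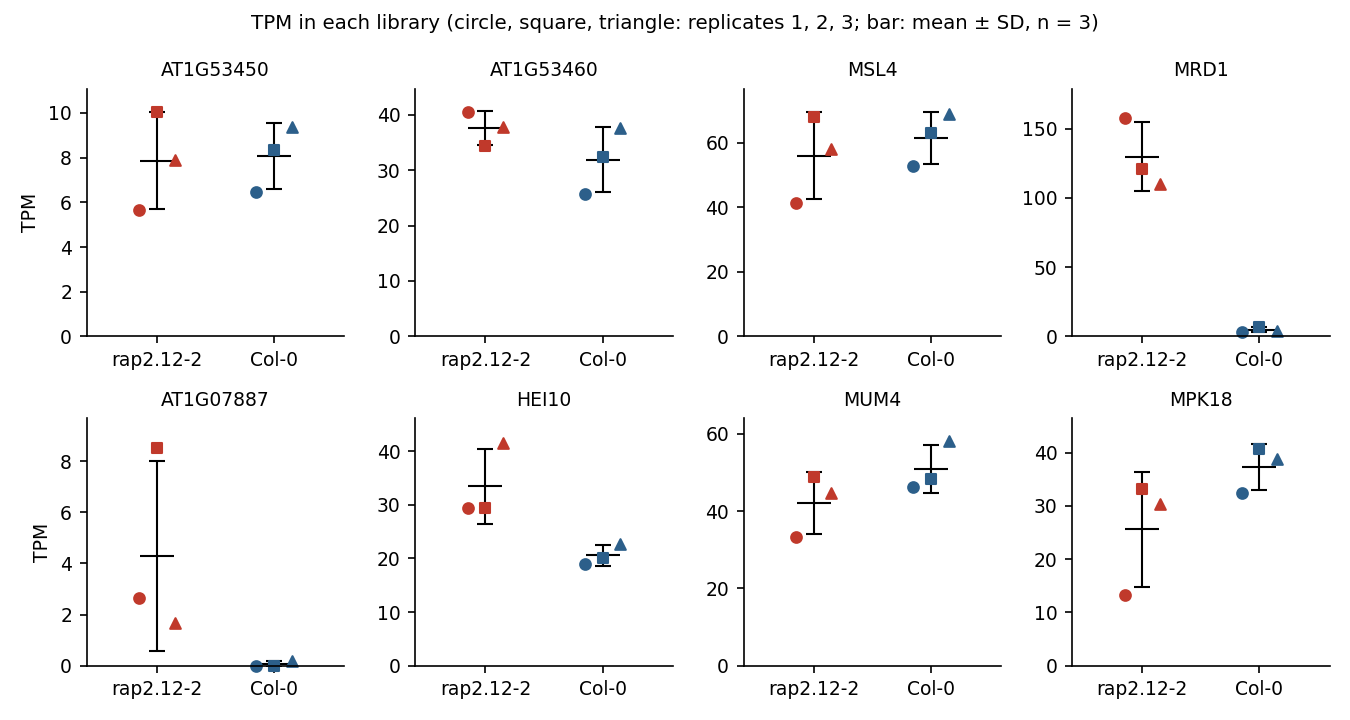
TPM of each of the 8 loci in every library, with the mean and SD of each genotype (n = 3); each panel has its own axis from 0. The libraries labelled rap2.12-2 lie above all Col-0 libraries for MRD1, AT1G07887 and HEI10, and the genotypes overlap in the other 5.

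None of the 5 flanking genes differed between the genotypes beyond the spread of the libraries. By limma with Benjamini-Hochberg adjustment over all kept genes, 0 of 5 were called (of all kept genes 0.0698% were, 0.0429% higher and 0.0268% lower). Without adjustment, 0 of 5 had a p under 0.05, against 6.84% of all kept genes. Adjusted p-values ran from 0.80 to 0.97. Exact two-sided permutation tests of the 6 values gave p from 0.2 to 0.9, where 0.1 is the smallest that 3 against 3 allows. Across the 5 genes, the highest upper bound of the 95% intervals was 0.65 and the lowest lower bound was -1.33 (log2). These intervals leave room for moderate differences, so the flanking genes are not shown to be equal.

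On the lower-coordinate side, MSL4 (AT1G53470, chr1:19958380-19961827, plus strand) is the closest, 1.2 kb from MRD1. It encodes a channel of the MscS-like family, which is gated by membrane tension. MSL4 was listed at 41.4, 68.1 and 58.2 TPM in libraries labelled rap2.12-2, against 52.8, 62.8 and 68.8 TPM in Col-0. The groups overlapped, and the lowest library was replicate 1 of the mutant label. The log2 difference was -0.16 (SE 0.21, 95% interval -0.63 to 0.32, limma adjusted p = 0.90).

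Next on that side is AT1G53460 (chr1:19954390-19956915, minus strand), annotated as a craniofacial development protein, a name carried over from animals. It was listed at 40.4, 34.4 and 37.8 TPM under the mutant label, against 25.8, 32.4 and 37.5 TPM in Col-0. The groups overlapped, with the lowest value in Col-0 replicate 1. The log2 difference was 0.24 (SE 0.18, 95% interval -0.16 to 0.65, limma adjusted p = 0.86). AT1G53450 (chr1:19951006-19954325, minus strand) was the least abundant flanking gene, at 5.67, 10.02 and 7.88 TPM under the mutant label and 6.46, 8.32 and 9.38 TPM in Col-0. Its groups covered nearly the same range. The log2 difference was -0.05 (SE 0.25, 95% interval -0.61 to 0.51, limma adjusted p = 0.97).

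On the other side, MUM4 (AT1G53500, also RHM2; chr1:19966944-19969757, minus strand) makes UDP-rhamnose for the pectin of seed coat mucilage, and its end overlaps that of HEI10 by 9 exonic bases. It was listed at 33.2, 48.7 and 44.6 TPM in libraries labelled rap2.12-2, against 46.3, 48.3 and 58.0 TPM in Col-0. The groups overlapped through replicate 2 of the mutant label. The log2 difference was -0.28 (SE 0.19, 95% interval -0.70 to 0.15, limma adjusted p = 0.85).

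MPK18 (AT1G53510, chr1:19970334-19974393, minus strand) encodes a mitogen-activated protein kinase linked to cortical microtubules. It was listed at 13.3, 33.2 and 30.4 TPM in libraries labelled rap2.12-2, against 32.5, 40.7 and 38.7 TPM in Col-0. Replicate 1 of the mutant label was far below the rest, and the remaining values overlapped. The log2 difference was -0.62 (SE 0.31, 95% interval -1.33 to 0.09, limma adjusted p = 0.80), and it was -0.22 without that library. MPK18 has 2 stretches with a copy elsewhere at 95% identity or more, so reads there can be split between copies.

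That library was low for long transcripts in general. Relative to the mean of the other 2 libraries of its label, its median log2 difference was 0.11 among 6202 kept genes of up to 1427 exonic bases, -0.17 among 6205 of 1428 to 2136 bases and -0.57 among 6195 of 2137 bases or more. Col-0 replicate 1 against its own group gave -0.26, -0.26 and -0.24. It was thus lower at every length, and its listed total was the lowest of all libraries. MPK18, with 2710 exonic bases, stood at -1.20 in replicate 1 of the mutant label, while MRD1, with 1250, stood at 0.45. Of the other flanking genes, MSL4 (-0.59), AT1G53450 (-0.57) and MUM4 (-0.48) were also lower in that library, and AT1G53460 was not (0.16). The part of transcript length in the values of single loci was not tested.

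Summed over the 5 flanking genes, the level was 134, 194 and 179 TPM in libraries labelled rap2.12-2, against 164, 193 and 212 TPM in Col-0. The sums overlapped (exact two-sided permutation test p = 0.5). MRD1 alone equalled 118%, 62.1% and 61.7% of that sum under the mutant label, against 1.99%, 3.58% and 1.93% in Col-0. The 118% was that of replicate 1, where the flanking sum was the lowest of all libraries and MRD1 the highest. With the flanking sum as the scale within each library, a measure added after the data were seen, the log2 difference of MRD1 was 5.0. That value was taken from plain ratios, without the added 1. It therefore cannot be compared directly with the difference of MRD1 in log2(TPM + 1), and no effect of the flanking scale is read from it.

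**Figure D3:**
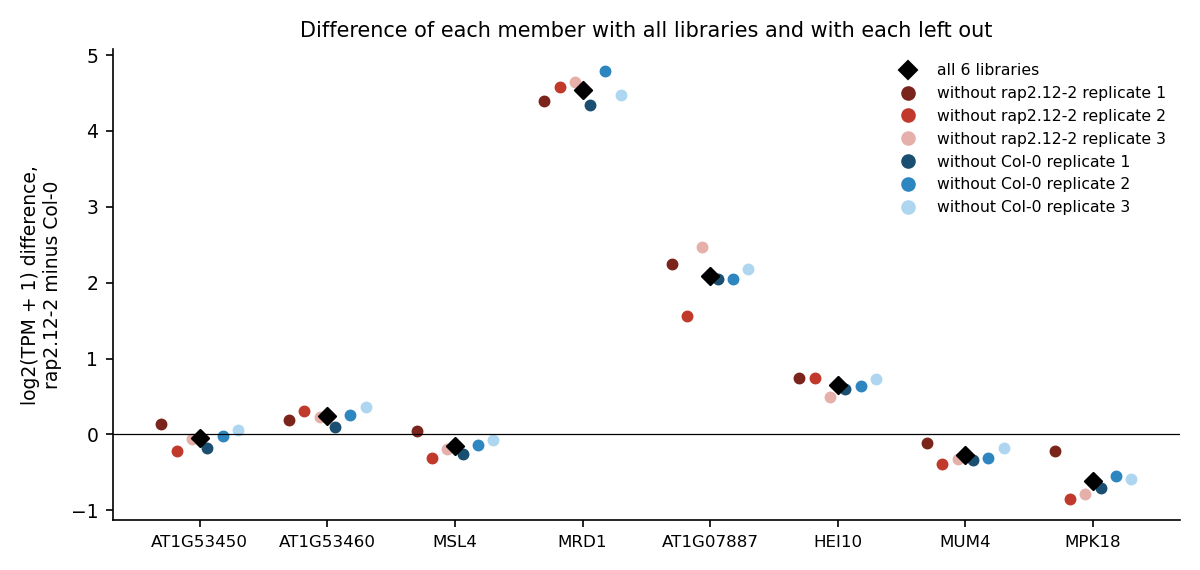
Difference in log2(TPM + 1), rap2.12-2 minus Col-0, of each of the 8 loci with all 6 libraries and with each library left out in turn. MRD1 stays between 4.35 and 4.79, AT1G07887 between 1.56 and 2.48 and HEI10 between 0.50 and 0.74, while MPK18 moves most among the flanking genes (-0.85 to -0.22).

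Beyond the 8 loci, the nearest kept gene on each side also did not pass the test. AT1G53440, a leucine-rich repeat receptor kinase gene 11.5 kb away that overlaps the end of AT1G53450, was listed at 7.58, 16.7 and 21.3 TPM under the mutant label, against 14.9, 22.7 and 19.2 TPM in Col-0 (log2 difference -0.39, limma adjusted p = 0.87). FAP3, a fatty-acid-binding protein gene 11.7 kb away, was listed at 11.1, 14.6 and 17.1 TPM under the mutant label and 11.2, 12.4 and 16.4 TPM in Col-0 (0.09, limma adjusted p = 0.94). Both pairs of groups overlapped.

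Within 50 kb of MRD1, leaving out MRD1, AT1G07887 and HEI10, 21 of 30 loci were kept. Of these 21, limma called 0, against 0.0698% of all kept genes, so 0 calls is near the background. At an unadjusted p under 0.05 there were 2 of 21, against 6.84% of all kept genes. A positive difference was found in 9 of 21 (42.9%), against 46.7% of all kept genes, and the median difference was -0.16, against -0.02. The share was 23.8% without Col-0 replicate 1 and 57.1% without replicate 1 of the mutant label, so no direction is drawn from it. The groups did not overlap in 1 of the 21 (4.76%), against 12.7% of all kept genes. The median size of a difference was 0.24 log2 units in this window and 0.17 over all kept genes. Its highest difference was that of AT1G53542 (1.98), listed at 17.6, 25.4 and 21.3 TPM under the mutant label and 0, 7.11 and 20.9 TPM in Col-0. The spread of that gene lay in Col-0, where it reached the level of the mutant label in replicate 3 (limma adjusted p = 0.75).

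Farther out, 2 of the 96 kept genes within 250 kb were called, RAP2.12 itself and AT1G53887, against 0.0698% of all kept genes. These calls depended on the libraries and the fit. The count was 0 without Col-0 replicate 1 or 3, without replicate 2 or 3 of the mutant label, with no filter, with no mean-variance trend and with the replicate block. It was 1 without Col-0 replicate 2 and with median-of-ratios scaling. AT1G53887, 157.6 kb away, was listed at 61.2, 41.1 and 47.9 TPM under the mutant label, against 12.7, 15.6 and 15.3 TPM in Col-0. A stretch of 399 bases is identical in AT1G53887 and RAP2.12, on opposite strands. Reads lying wholly within it cannot be assigned with certainty to 1 of them unless strand was used. The share with a positive difference was 38.9% of 18 genes between 50 and 100 kb. It was 63.2% of 57 genes between 100 and 250 kb, the bin that holds RAP2.12. AT1G53885 and AT1G53903, both among these 57, were listed with the same values in every library (log2 difference 0.95 each). The 57 are therefore not all separate measurements. The share was 41.0% of 261 genes between 250 and 1000 kb. In that bin limma called 1 of the 261 genes, against 0.0698% of all kept genes. The called gene was the lectin gene AT1G52070 at 596.1 kb (log2 difference 2.54, limma adjusted p = 0.025). The highest difference there was 3.14, that of the lectin gene AT1G52060, which did not pass (limma adjusted p = 0.059). Over the whole 250 kb window the share was 54.2%, and it moved between 36.5% and 69.8% with the scaling and the libraries used, so no direction is drawn from it.

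**Figure D4:**
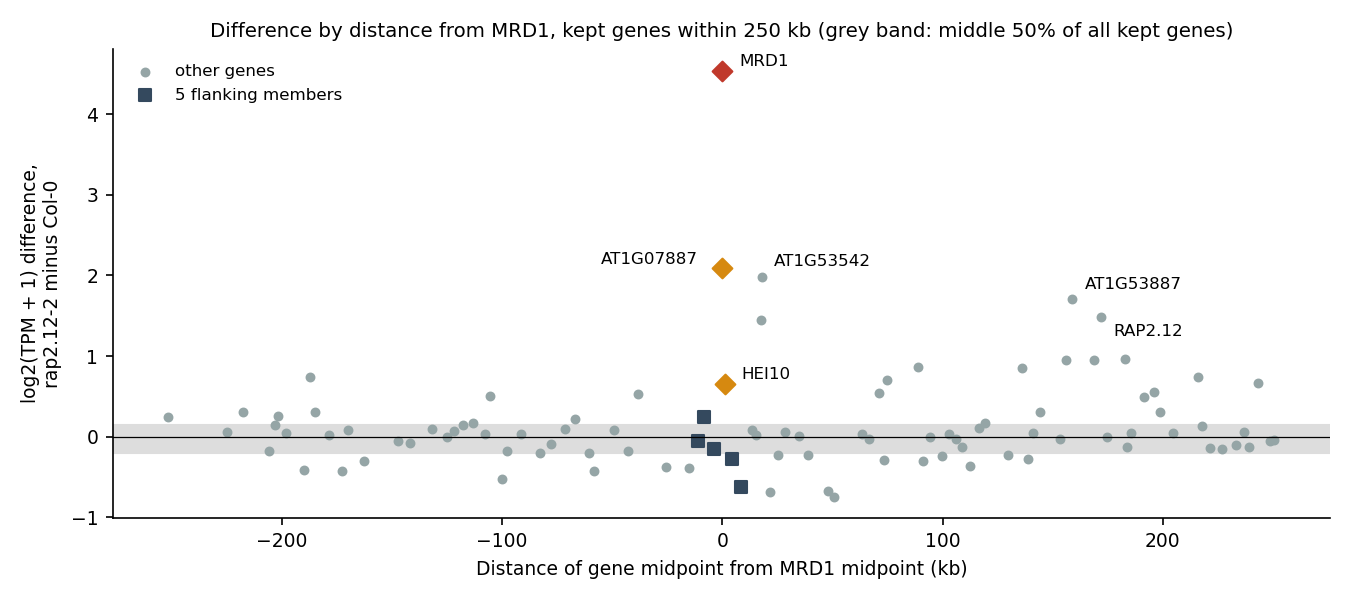
Difference in log2(TPM + 1), rap2.12-2 minus Col-0, of kept genes within 250 kb by distance from MRD1 (kb), with the grey band holding the middle 50% of all kept genes (-0.20 to 0.15). MRD1 stands alone at 4.54, the 5 flanking genes (squares) lie between -0.62 and 0.24, and RAP2.12 and AT1G53887 are the called genes to the right.

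MRD1 also has relatives in sequence elsewhere in the genome. No other stretch matched it at 95% identity or more over at least 100 bases. The longest match, chr5:725458-726513 (TAIR10.1), aligned over 1061 bases at 89.9% identity and covered 84.0% of MRD1 exonic bases, with no identical run above 50 bases. It holds 505 bases of AT5G03090, a protein-coding locus. AT5G03090 was listed at 2.34, 1.53 and 1.25 TPM in libraries labelled rap2.12-2, against 0, 0 and 0 TPM in Col-0. It was thus present at low level in every library in which MRD1 was high and listed at 0 in every other. It was the 1 locus of 31305 (0.00319%) at 0 in every Col-0 library and at 1 TPM or more in every library labelled rap2.12-2, a criterion chosen after its values were seen, and 1 locus met the opposite criterion. At 0.5 TPM in place of 1, 3 loci (0.00958%) met it. Its mean was under 1 TPM, so it was not in the limma fit. Whether reads of MRD1 were counted there was not tested.

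The other matches were chr1:10775742-10776296 (558 bases, 91.9% identity) and chr2:2331617-2331835 (221 bases, 93.2% identity). The non-coding loci AT1G06327 and AT1G06333, in the match on chromosome 1, were listed at 0 in all 6 libraries, and the match on chromosome 2 lay in no annotated locus.

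Genes whose values most resembled those of MRD1 were ranked by the root mean square difference of centred log2(TPM + 1) over the 6 libraries. They were the mannose-binding lectin gene AT1G52060 (0.78), the IQ calmodulin-binding motif gene AT3G52870 (0.94), the lectin gene AT1G52070 (1.00), the small nuclear RNA gene U2.14 (1.05) and the lectin gene AT1G52050 (1.06). AT1G52060 was listed at 197, 118 and 97.0 TPM in libraries labelled rap2.12-2, against 11.03, 29.3 and 8.20 TPM in Col-0. It shared with MRD1 the highest value under the mutant label in replicate 1 and the highest Col-0 value in replicate 2. The ranking used these same 6 values, including the genotype difference by which MRD1 was chosen. This likeness therefore follows from the choice, and nothing is read from it. The lectin genes lie on the same chromosome, AT1G52070 at 596.1 kb from MRD1.

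Methionine and S-adenosylmethionine metabolism was examined because MRD1 was named for its level in a methionine mutant. Of 18 listed genes 17 were kept, and limma called 0 of them, against 0.0698% of all kept genes. In a list of this size, 0 calls is near the background. At an unadjusted p under 0.05, 1 gene was higher and 0 were lower, against 3.22% higher and 3.62% lower of all kept genes. The median difference was 0.03, against -0.02 over all kept genes, with 10 positive and 7 negative. MTO1 (CGS1), the cystathionine gamma-synthase gene, averaged 213 TPM under the mutant label and 212 TPM in Col-0 (log2 difference 0.01). The gene with the smallest p was TS2, a threonine synthase gene, at 18.7, 18.3 and 19.3 TPM under the mutant label, against 13.2, 11.1 and 16.7 TPM in Col-0. Its groups did not overlap, but it did not pass (log2 difference 0.45, limma adjusted p = 0.70).

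Families of the neighbours were examined by the same counts. Over all kept genes 0.0698% were called and 6.84% had an unadjusted p under 0.05, so 0 calls in families of this size is near the background. Among MscS-like channels, limma called 0 of 7 kept genes of 10, with a median difference of -0.06 and none at an unadjusted p under 0.05. MSL6 had the smallest p (log2 difference -0.34, limma adjusted p = 0.85). In UDP-rhamnose synthesis 0 of 4 were called and none had an unadjusted p under 0.05 (median -0.09), and UER1, which completes UDP-rhamnose, had the smallest p (0.27, limma adjusted p = 0.83). In group D of the mitogen-activated protein kinases 0 of 8 were called and none had an unadjusted p under 0.05 (median -0.13), and MPK18 had the smallest p.

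Of 7 factors of class I crossovers, 6 were kept, HEI10 among them. Among the other 5, limma called 0, all differences were negative and the median was -0.20. Over all kept genes 46.7% of differences were positive. Each of the 5 had its lowest value under the mutant label in replicate 1. The median of the 6 kept genes, HEI10 included, was -0.17, and it was 0.01 without that library. No direction is therefore drawn from these genes. Without adjustment, 1 of the 5 had a p under 0.05, the crossover gene ZIP4, against 6.84% of all kept genes. ZIP4 was listed at 0.38, 0.73 and 1.15 TPM under the mutant label, against 2.04, 2.80 and 1.57 TPM in Col-0. Its groups did not overlap, at a level close to the lowest that was tested, and it did not pass (log2 difference -0.84, limma adjusted p = 0.60).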

How the data were processed

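The authors deposited TPM for 31305 loci in 6 libraries, built with a TruSeq kit per the labels. RSEM 1.3.1, STAR 2.7.10a and TAIR10 are named, without roles, per the submitters' processing notes. Columns were matched to samples by title, 3 a group. Positions, exons and sequences come from TAIR10.1 (31217 loci matched, 88 did not).

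Loci averaging 1 TPM or more (18629) were compared as log2(TPM + 1), which understates changes of low genes, with limma 3.58.1 (R 4.3.3; mean-variance trend, Benjamini-Hochberg over kept genes, threshold 0.05). This fit was tested on simulated data. MRD1 exons were searched with BLAST 2.17.0.

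Named were the 8 loci, RAP2.12, called genes within 250 kb, the nearest kept gene on each side, the gene of smallest p in each list with no call, and the 5 genes most like MRD1. AT1G53542, AT1G53885, AT1G53903, AT5G03090, MTO1, ZIP4 and the other loci at MRD1 copies fall outside this rule. They were picked once their values had been seen. The members and lists were chosen with earlier results of these data known. Alternatives were other pseudocounts, filters, scalings, variance priors, windows, a replicate block and omitted libraries.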

Additional observations from a re-analysis of the deposited data

How the results depend on the processing

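TPM hides depth, and strand use in counting is unknown, so values at MRD1, AT1G07887 and HEI10 cannot be separated further. MRD1 stayed between 4.20 and 5.0 (log2) in all 18 alternatives, and HEI10 between 0.50 and 0.74 in 17. The 5.0 of MRD1 was on the scale of the flanking sum. It was computed without an added pseudocount, so it is not directly comparable with the other values in that range. AT1G07887 gave 4.605 with a pseudocount of 0.1 and 2.83 with 0.5, and was not in the fit at a mean of at least 5 TPM. The number of flanking genes called was 0 in all 17 alternatives. AT1G53450 (-0.22 to 0.14) and MSL4 (-0.31 to 0.04) changed sign when a library was left out. The causes were not tested.

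Over all genes, limma called 8 higher and 5 lower. It called 3 and 3 with no filter, 3 higher with median-of-ratios scaling (33.3% of its calls, against 61.5%), 2 and 3 with no mean-variance trend, and 0 and 0 without both replicates 1 (1215 at an unadjusted p under 0.05). Leaving out single libraries gave 2 to 19 higher and 2 to 6 lower, the 19 without Col-0 replicate 2. Calls within 250 kb (2) became 0 with no filter, no trend or without both replicates 1, 1 with median-of-ratios scaling, and 0 to 2 with single libraries left out. The 0 calls within 50 kb became 2 within 250 kb and 3 within 1000 kb. Removal of organelle genes moved the median of all genes to -0.10.

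Same-numbered libraries deviated together with r = 0.20, 0.35 and -0.11. The 0.35 of replicates 2 was the highest of all pairs across the genotypes. Replicate 1 under the mutant label correlated best with Col-0 replicate 3 (0.23). These values do not settle whether the numbers pair the libraries. With the replicate block, limma called 2 higher and 2 lower, and 0 within 250 kb. At an unadjusted p under 0.05 there were 1785 genes with the block, against 1274 in the main fit.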
